A study of Sus scrofa with 18 samples.

Results

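The genes described here are those of the extracellular matrix, of the proteases that cut it and their inhibitors, and of the integrins by which cells hold on to it. They were taken by symbol: collagens, matrix metalloproteinases (MMP), their tissue inhibitors (TIMP), integrin alpha and beta subunits and laminin chains with a number in the symbol, the ADAMTS proteases, and FN1, DCN, LUM, POSTN, THBS1, SPARC, BGN, LOX and FBN1. The rule found 53 of the 6765 genes that the array names with a single symbol, measured by 99 probe sets, and each gene was read from its brightest probe set. By role they are 15 collagen chains, 3 laminin chains, 9 glycoproteins, proteoglycans and cross-linking enzymes, 8 MMPs, 4 TIMPs, 3 ADAMTS proteases, 10 integrin subunits and ITGB1BP2. ITGB1BP2 (melusin) is a muscle protein that binds an integrin and is no integrin itself. COL1A1, COL4A1, COL6A1 and LAMA2 were not analysed here.

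The tissue was right ventricular free wall from 9 pigs of a Hampshire, Yorkshire and Swedish Landrace cross, on 18 Affymetrix arrays. Each pig gave a baseline sample and a failure sample, the second after coronary artery ligation. For 6 pigs (6, 8, 9, 11, 12 and 13; label set 1) the labels give 120 min of ischemia, and for the other 3 (5, 10 and 14; label set 2) they give 30 to 40 kg of body weight and define failure as a right atrial pressure above 20 mmHg. The samples used here include no time-matched pigs without ligation, so ischemia cannot be told apart from time under anaesthesia and surgery. Ages are not in the labels.

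The heart's matrix is a mesh of fibrillar collagens that ties muscle bundles together, with a basement membrane of type IV collagen and laminin around each myocyte and capillary. Fibroblasts make most of it. MMPs and ADAMTS proteases cut matrix proteins, TIMPs block the MMPs, and integrins are alpha-beta pairs that couple the matrix to the cytoskeleton. After an infarct, cleavage of old matrix and provisional proteins such as fibronectin, thrombospondin and periostin come before new collagen is laid down.

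Values are log2 intensities as deposited, so a difference of 1 is 2-fold. Array medians lay between 5.59 and 5.66. A level cannot be set against that of another gene, since probes differ in brightness. The 95th percentile of 64 reporter control probe sets, which match no listed pig gene, was 4.41 and served as a background level. Of the 53 genes, 43 lay above it in at least 1 group mean. The other 10 (MMP1, MMP3, MMP7, MMP13, MMP20, TIMP4, ADAMTS20, ITGA2, ITGA6 and ITGB7) were not above background in either group, and their changes bound nothing. As a check of the tissue, all 9 measured cardiomyocyte markers were above this level, with MYL2, the ventricular light chain of myosin, at 14.7. The 3'/5' difference of GAPDH, a sign of RNA quality, ran from 0.31 to 3.55 and was highest on both arrays of pig 5 (2.61 and 3.55).

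No gene of the matrix, its proteases or its receptors passed the test of failure against baseline. The comparison asks whether transcripts of the matrix differed between the failing wall and the same wall before ligation. In limma, with pig as a block and adjustment over all 23935 tested probe sets, 0 of 53 had an adjusted p under 0.05, against 0.0668% of all tested probe sets (16), and the smallest adjusted p was 0.548. At an unadjusted p under 0.05 there were 4 of 53 (7.55%), TIMP1, ITGA8 and ITGA6 with higher and ITGB3 with lower values. The share over all probe sets was 6.14%, so that of the 53 genes lay near the background. With another test, the unmoderated paired one, 0 of 53 passed, as did 0 of all 23935 probe sets, and 3 of 53 had an unadjusted p under 0.05, against 5.98% of all probe sets.

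The mean changes were small. The largest mean change was 1.23-fold (TIMP1). Of the 43 genes above background, the 95% intervals from limma lay inside a 1.5-fold change in either direction for 43 and inside 1.25-fold for 33. In limma the spread of a gene is drawn toward a pooled value. With each gene's own spread the intervals of 3 genes reached past 1.5-fold: TIMP3 (up to 0.64), TIMP1 (up to 0.59) and ITGB2 (down to -0.59). Inside 1.25-fold lay the intervals of 43 of all 53 genes in limma and of 35 with their own spread. Intervals given below for single genes are those of limma. Leaving out 1 pig moved the mean change by over 1.5 times, or turned its sign, for 47 of 53 genes (33 of 53 for pig 8). The exceptions were TIMP1, ITGB3, ITGA8, ADAMTS6, COL7A1 and ITGA6. A mean change near 0 passes this mark easily, and the share over all genes was not counted. The mean change was above 0 for 40 of 53 genes, with a median of 0.05, whereas 3136 of all 6765 genes lay above 0, with a median of -0.01. With the GAPDH difference as a covariate the median was 0.02 and 30 of 53 lay above 0. Without pig 8 the median was 0.00944 (32 of 53 above 0) and without pig 5 it was 0.05 (36 of 53).

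**Figure D1:**
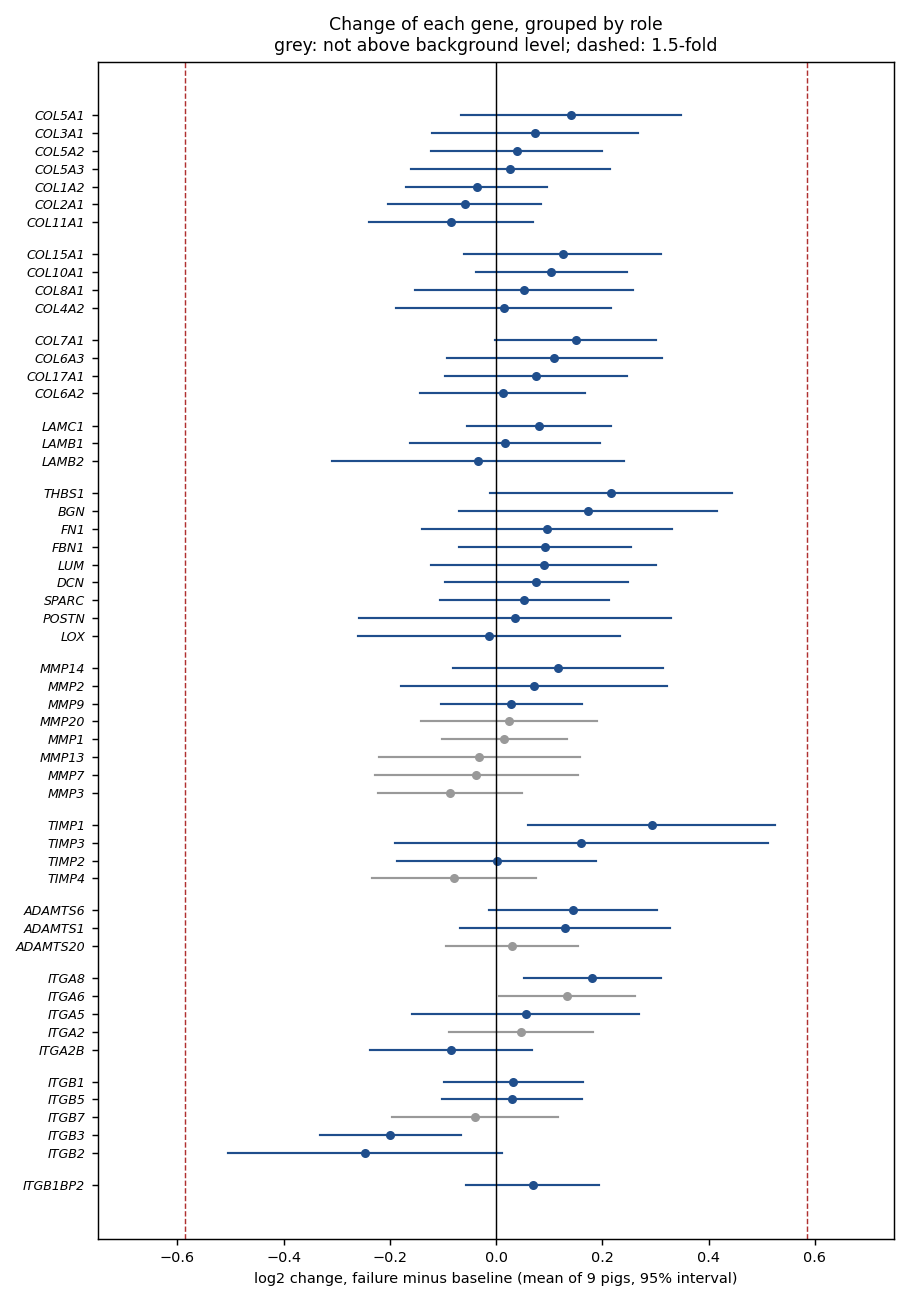
Mean log2 change from baseline to failure (x axis) for each of the 53 genes (rows, grouped by role), with the 95% interval of limma over 9 pigs as a line; grey marks the 10 genes not above background and dashed lines mark 1.5-fold. The intervals of the 43 genes above background lie inside the dashed lines, and TIMP1, ITGA8, ITGA6 and ITGB3 have intervals that leave out 0.

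Fibrillar collagens, the load-bearing fibres, had overlapping ranges in both groups. COL1A2, a chain of type I collagen, ran from 6.82 to 7.48 at baseline (median 6.89) and from 6.75 to 7.46 in failure (median 7.03). The ranges were nearly the same, and its change was -0.04 (SE 0.06, interval -0.17 to 0.10), with 7 of 9 pigs lower. COL3A1, the chain of type III collagen, ran from 4.92 to 6.06 and from 5.30 to 6.15 (change 0.07, interval -0.12 to 0.27). COL5A1, a chain of type V collagen that helps start new fibrils, ran from 8.42 to 10.10 and from 8.45 to 10.22. Its change was 0.14 (interval -0.07 to 0.35), with 7 of 9 pigs higher, and its 6 probe sets had changes from 0.02 to 0.17. Without pig 8 the change was 0.08. COL2A1, COL5A2, COL5A3 and COL11A1 had changes from -0.08 to 0.04. COL2A1 (-0.06) and COL11A1 (-0.08, at a level of 4.49 near background) had second probe sets of the opposite sign. These had changes of 0.06 and 0.05, that of COL11A1 at a level of 3.66, not above background. Of the 7 fibrillar chains, 4 lay above 0 and 3 below, with a median of 0.03 and a smallest adjusted p of 0.896.

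Collagens of basement membranes and of the cell surroundings all had mean changes above 0 in the fit without a covariate, none past the threshold. COL4A2, a chain of the basement membrane network, ran from 9.40 to 10.63 at baseline (median 9.56) and from 9.35 to 10.49 in failure (median 9.69), with a change of 0.01 (interval -0.19 to 0.22). COL15A1, of the zone next to capillaries and myocytes, had a change of 0.13 (interval -0.06 to 0.31), higher in 7 of 9 pigs. With the GAPDH difference as a covariate the COL15A1 change was 0.02 (SE 0.06). COL6A2 and COL6A3, chains of the same beaded-filament trimer, had changes of 0.01 and 0.11. Under that covariate COL6A3 came to 0.02, COL6A2 to -0.01 and COL4A2 to -0.02, while COL10A1 came to 0.13. COL7A1, of anchoring fibrils, had a change of 0.15 (interval -0.0020 to 0.30, adjusted p = 0.819) at a dim level of 4.75. COL10A1 had 8 of 9 pigs higher at a mean change of 0.10, and COL8A1 and COL17A1 changes of 0.05 and 0.08.

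Of the laminin chains, which form the other network of basement membranes, 0 of 3 passed. LAMC1, the gamma chain common to most laminins, ran from 11.34 to 11.66 at baseline and from 11.29 to 12.02 in failure, so the failure samples spread more widely around a change of 0.08 (interval -0.05 to 0.22). Its other 3 probe sets had changes of 0.18, 0.09 and 0.18, of which one had an unadjusted p of 0.0122 (adjusted 0.619). LAMB1 had a change of 0.02 (interval -0.16 to 0.20). LAMB2, the beta chain of the mature myocyte basement membrane, had a change of -0.03 with 7 of 9 pigs higher, pig 9 at -1.15 and pig 5 at -0.41.

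Provisional matrix proteins and proteoglycans had wide ranges in both groups. THBS1 encodes thrombospondin 1, which binds and activates latent TGF-beta. It ran from 9.42 to 11.08 at baseline (median 10.29) and from 9.86 to 11.24 in failure (median 10.46). The groups overlapped over most of this range, and the change was 0.22 (SE 0.11, interval -0.01 to 0.44, adjusted p = 0.824), with 6 of 9 pigs higher. Without pig 12, at 0.90, the change was 0.13. Its 5 probe sets had changes from -0.07 to 0.22.

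BGN, the proteoglycan biglycan, ran from 7.43 to 8.65 at baseline (median 7.90) and from 7.55 to 8.94 in failure (median 7.98). It was higher in 8 of 9 pigs, with a change of 0.17 (interval -0.07 to 0.42, adjusted p = 0.886) and pig 9 at -0.59. Without pig 8, at 1.0, the change was 0.07. FN1, fibronectin, ran from 9.42 to 11.84 (median 10.43) and from 9.27 to 11.99 (median 10.34). Its change of 0.10 (interval -0.14 to 0.33) came to -0.03 without pig 8, whose change was 1.08, against at most 0.24 in the other pigs. The 4 probe sets of FN1 had changes from 0.03 to 0.24, the highest at a level of 4.47, near background. POSTN, periostin, a matricellular protein of activated fibroblasts, ran from 9.52 to 10.46 (median 9.98) and from 9.32 to 10.83 (median 9.92). Pig 8 went from the lowest of the baseline values to the highest of the failure values, and 6 of the other 8 pigs were lower. The mean change of 0.04 became -0.12 without pig 8.

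The small proteoglycans DCN and LUM, which bind collagen fibrils, had changes of 0.08 (interval -0.10 to 0.25) and 0.09 (interval -0.12 to 0.30). Without pig 8 these were 0.03 and 0.0067. SPARC, a collagen-binding glycoprotein, ran from 12.36 to 13.99 and from 12.43 to 14.06, with a change of 0.05 (interval -0.11 to 0.21) and 7 of 9 pigs higher. FBN1, fibrillin 1 of elastic microfibrils, had a change of 0.09. LOX, the enzyme that cross-links collagen and elastin, ran from 5.96 to 7.49 (median 7.01) and from 5.73 to 8.24 (median 6.68). Its change of -0.01 (interval -0.26 to 0.23) joined pigs that moved in opposite ways, from -0.63 in pig 9 to 0.75 in pig 5. Over the 9 genes of these classes 8 lay above 0, with a median of 0.09.

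**Figure D2:**
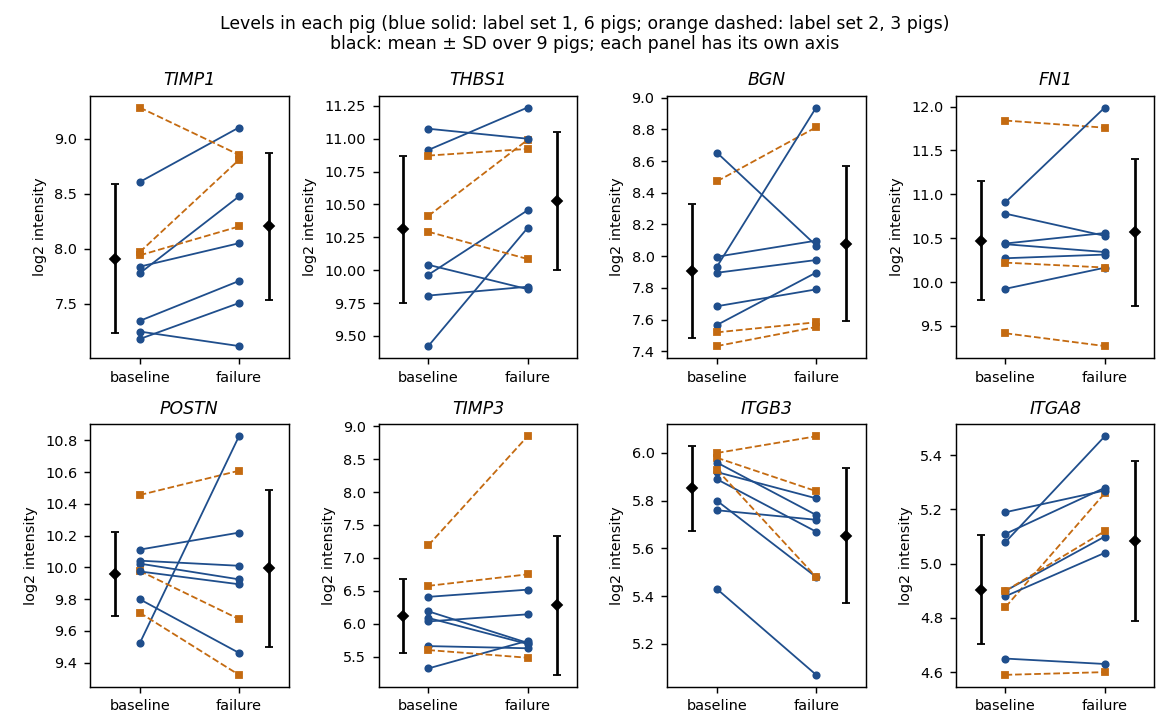
Log2 intensity at baseline and in failure of 8 genes, with each pig's samples joined by a line (blue solid, label set 1, 6 pigs; orange dashed, label set 2, 3 pigs) and the mean ± SD over 9 pigs in black; each panel has its own axis. The steep lines are pig 8 in FN1, POSTN and BGN and pig 5 in TIMP3, while ITGB3 is lower in 8 of 9 pigs, with a lowest change of -0.45.

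Of the proteases, the secreted collagenases and stromelysin were not above background in either group. MMP1 lay at 2.75 ± 0.16 and 2.77 ± 0.09 (SD, n = 9), MMP13 at 3.42 ± 0.20 and 3.39 ± 0.20, and MMP3 at 3.51 ± 0.21 and 3.42 ± 0.15. MMP7 (matrilysin) and MMP20 (an enamel protease) were likewise not above it. The 3 MMPs above background were MMP2, MMP9 and MMP14. MMP2, the gelatinase that fibroblasts make constitutively, ran from 7.28 to 8.91 at baseline (median 7.69) and from 6.97 to 8.62 in failure (median 7.94). Its change was 0.07 (interval -0.18 to 0.32), with pig 9 at -0.73 and pig 8 at 0.61. MMP9, the gelatinase of neutrophils and macrophages, ran from 4.60 to 5.02 and from 4.55 to 5.0, near background, with a change of 0.03 (interval -0.10 to 0.16). MMP14, a membrane protease that activates MMP2, ran from 5.86 to 6.76 and from 6.04 to 6.61, with a change of 0.12 (interval -0.08 to 0.32).

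ADAMTS1, which cuts the proteoglycan versican, ran from 9.48 to 10.83 at baseline and from 9.79 to 11.14 in failure, with equal medians of 10.13. Its change was 0.13 (interval -0.07 to 0.33), higher in 7 of 9 pigs. A second probe set gave 0.15. ADAMTS6 had a change of 0.15 (interval -0.01 to 0.30, adjusted p = 0.831), which was 0.06 with the GAPDH difference as a covariate. ADAMTS20 was not above background.

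TIMP1, an inhibitor that cells secrete under stress and cytokines, had the largest mean change of the 53. It ran from 7.18 to 9.28 at baseline (median 7.84) and from 7.12 to 9.10 in failure (median 8.20). The groups overlapped almost fully. Within pigs the change was 0.29 (SE 0.11, interval 0.06 to 0.53, adjusted p = 0.690), higher in 7 of 9, from -0.43 in pig 10 to 0.84 in pig 5. Leaving out single pigs gave changes from 0.23 to 0.38 and adjusted p values from 0.422 to 0.889, and the covariate for RNA quality gave 0.21 (adjusted p = 0.809). TIMP1 had a single probe set.

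TIMP3, the inhibitor that stays bound to the matrix, varied most of all 53 between pigs (SD of the change 0.63). It ran from 5.32 to 7.19 at baseline and from 5.48 to 8.85 in failure. Pig 5 changed by 1.66 and the other 8 pigs by -0.48 to 0.42, so the mean of 0.16 (interval -0.19 to 0.51) became -0.03 without pig 5. The other probe sets of TIMP3 had changes of -0.03 and -0.03. TIMP2 had a change of 0.00106 (interval -0.19 to 0.19), with pig 9 at -0.66. A second TIMP2 probe set, almost as bright (8.49 against 8.62), had a change of 0.10. TIMP4 was not above background.

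Integrins gave the smallest unadjusted p values. ITGB3, the beta 3 subunit of the vitronectin receptor and of the platelet fibrinogen receptor, ran from 5.43 to 6.0 at baseline (median 5.92) and from 5.07 to 6.07 in failure (median 5.72). It was lower in 8 of 9 pigs, with a change of -0.20 (SE 0.06, interval -0.33 to -0.07, unadjusted p = 0.00639, adjusted p = 0.548). ITGA2B, its platelet partner, had a change of -0.09 (interval -0.24 to 0.07), and ITGAV, its partner in the vitronectin receptor, of 0.10. The platelet marker GP9 had a change of -0.01, and PPBP was not above background. Red blood cell markers were lower in the same samples in 5 of 5 genes (median -0.83), of which 3 passed (ALAS2, AHSP and HBM). The part of blood content in the ITGB3 value was not tested. In bulk tissue, fewer cells of a type and less RNA per cell cannot be told apart.

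ITGA8, an alpha subunit of fibroblasts and smooth muscle that binds RGD ligands, ran from 4.59 to 5.19 at baseline (median 4.90) and from 4.60 to 5.47 in failure (median 5.12). It was higher in 8 of 9 pigs, with a change of 0.18 (SE 0.06, interval 0.05 to 0.31, unadjusted p = 0.00937, adjusted p = 0.591). Of its other probe sets, one had a change of 0.26 (adjusted p = 0.695) and one of 0.03, and neither was above background. ITGB2, the beta subunit of leukocyte integrins, ran from 4.53 to 5.69 and from 4.23 to 5.46, with a change of -0.25 (interval -0.50 to 0.01, adjusted p = 0.824). Its changes ran from -0.98 in pig 9 to 0.59 in pig 8, and the mean was -0.15 without pig 9. Monocyte and macrophage markers had a median change of 0.05, with 3 of 4 above 0. Their summed level ran from 9.30 to 10.11 at baseline and from 9.14 to 10.33 in failure. Their medians were 0.50 in pig 8 and -0.19 in pig 9. In pigs 5, 10 and 12 (0.18, 0.13 and 0.19) their sign was opposite to that of the ITGB2 change, and in the others the same. Neutrophil markers, also with a median change of 0.05, were not above background in 4 of 4. Lymphocyte markers had a median change of -0.10 (4 of 7 below 0, summed level 7.49 to 7.87 at baseline and 7.40 to 7.66 in failure), with 0 of 7 passed and pigs 8 and 9 at -0.08 and -0.29. CD8A (-0.49), KLRK1 (-0.36) and CD3D (-0.21) had unadjusted p under 0.05 in limma, 3 of 7 against 6.14% of all tested probe sets. CD8A and KLRK1 were each higher in 1 of 9 pigs. The 3 lymphocyte markers above 0 had changes of at most 0.02. The part of these cells in the ITGB2 value was not tested.

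ITGB1, the beta subunit that myocytes and fibroblasts share for laminin, collagen and fibronectin receptors, stayed within a narrow range. It ran from 11.34 to 11.86 and from 11.15 to 11.88, with a change of 0.03 (interval -0.10 to 0.16). ITGA5, its partner in the fibronectin receptor, had a change of 0.06 (interval -0.16 to 0.27), and ITGB5 of 0.03. ITGB1BP2 had a change of 0.07 at a baseline level of 10.89 ± 0.19 (SD, n = 9).

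Other genes of the same pathways were listed alongside. Of 8 measured genes of TGF-beta signalling 0 passed, with a median of 0.01. TGFB3, named here after its values were seen, was higher in 9 of 9 pigs with a change of 0.29 (SE 0.09, adjusted p = 0.528). TGFB2 had a change of 0.08 (SE 0.08). TGFB1 had a mean change of -0.16 (SE 0.16) but was higher in 5 of 9 pigs, with pig 9 at -1.39 and pig 5 at -0.82. Of 7 genes of collagen folding, processing and cross-linking 0 passed, with a median of -0.02, and SERPINH1, the collagen chaperone, had a change of -0.02. Of 12 genes of plasmin and other protease control 0 passed (median 0.03), with 7 above 0 and 5 below. They ran from -0.09 (ADAM9) to 0.18 (SERPINE2), with PLAU and PLAT, the plasminogen activators, at 0.17 and 0.15. Of 7 genes of integrin adhesion 0 passed (median 0.06).

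In 8 of 9 pigs or more the direction was the same for 4 of 53 genes (ITGA8, COL10A1 and BGN higher, ITGB3 lower) and for 3.86% of all 6765 genes. The SD of the 9 changes had a median of 0.26 over the 53 genes (0.11 to 0.63) and of 0.21 over all 6765 genes. The animals contributed unequally. Changes of more than 0.5 in either direction were seen for 11 of 53 genes in pig 8, 9 in pig 9 and 8 in pig 5, for 1 to 3 genes in pigs 6, 12, 13 and 14, and for 0 in pigs 10 and 11. Over all genes those shares were 5.88% in pig 8, 8.57% in pig 9 and 12.5% in pig 5. In the other pigs they ran from 2.50% (pig 14) to 4.54% (pig 13).

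Pig 8 had positive changes of POSTN (1.31), FN1 (1.08), BGN (1.0), LUM (0.75), COL8A1 (0.73) and COL5A1 (0.64). Pig 9 had negative changes of LAMB2 (-1.15), ITGB2 (-0.98), MMP2 (-0.73), TIMP2 (-0.66), LOX (-0.63) and BGN (-0.59). In pig 5 the genes past 0.5 included TIMP3 (1.66), TIMP1 (0.84), LOX (0.75), ADAMTS1 (0.61), THBS1 (0.58) and, below 0, ITGB2 (-0.55).

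**Figure D3:**
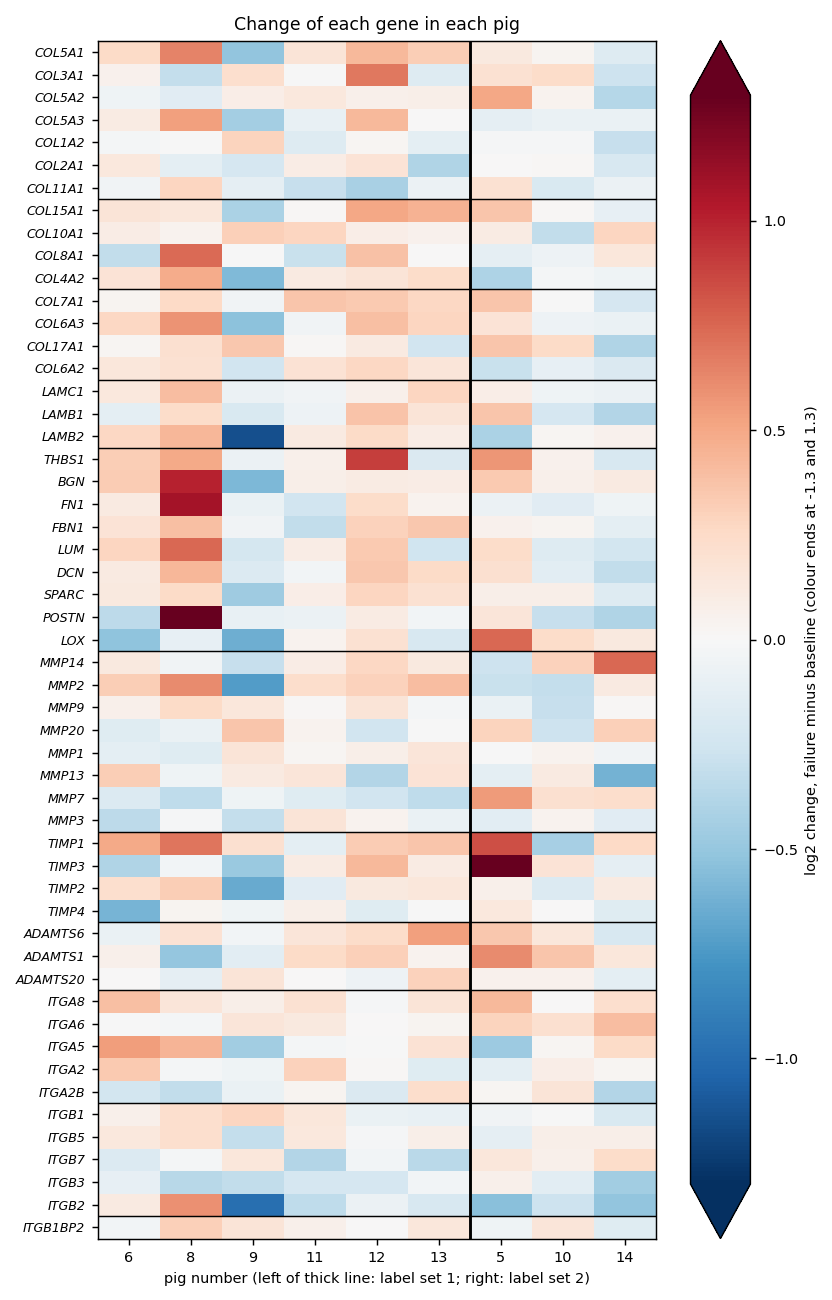
Log2 change from baseline to failure of each of the 53 genes (rows, grouped by role) in each pig (columns; 6 pigs of label set 1 left of the thick line, 3 of label set 2 right of it), red for higher and blue for lower in failure, with colours ending at -1.3 and 1.3. The columns of pigs 8 and 9 have mostly opposite colours among collagens, laminins and proteoglycans, while pigs 10 and 11 are pale.

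The median change over the 53 genes was 0.22 in pig 8, 0.12 in pig 12, 0.10 in pig 6, 0.09 in pig 5, 0.08 in pig 13, 0.05 in pig 11, 0.01 in pig 10, -0.09 in pig 9 and -0.11 in pig 14. More genes were higher than lower in 7 of 9 pigs, with 39 of 53 higher in pig 12 and 16 of 53 in pig 9. The medians over all 6765 genes stayed between -0.06 and 0.03. Markers of several cell types varied between the same pigs. The 7 measured markers of fibroblasts, the main source of matrix, had median changes of 0.46 in pig 8, 0.28 in pig 12 and 0.24 in pig 6, and of -0.20 in pig 9, -0.21 in pig 10 and -0.11 in pigs 11 and 14. Across pigs all 7 had a mean change above 0 (median 0.09), 0 passed, and their summed level ran from 13.27 to 14.16 at baseline and from 13.48 to 14.37 in failure. The GAPDH difference moved by 1.18 in pig 13, 0.94 in pig 5 and 0.55 in pig 12 and by -0.44 in pig 9 and -0.33 in pig 14. It was 0.237 ± 0.556 (SD, n = 9) higher in failure on average, in 6 of 9 pigs (p = 0.246 by a two-sided exact permutation test that flips signs). In pig 8 the medians of monocyte and macrophage, mesothelial and smooth muscle markers were 0.50, 0.49 and 0.24. In pig 9 the medians of smooth muscle, endothelial and macrophage markers were -0.44, -0.32 and -0.19. In pig 12 those of endothelial, smooth muscle and macrophage markers were 0.23, 0.20 and 0.19. Endothelial medians had the sign of the medians of the 53 genes in the same pigs as fibroblast medians did. The part of these cell types and of RNA quality in the medians of the 53 genes was not tested.

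**Figure D4:**
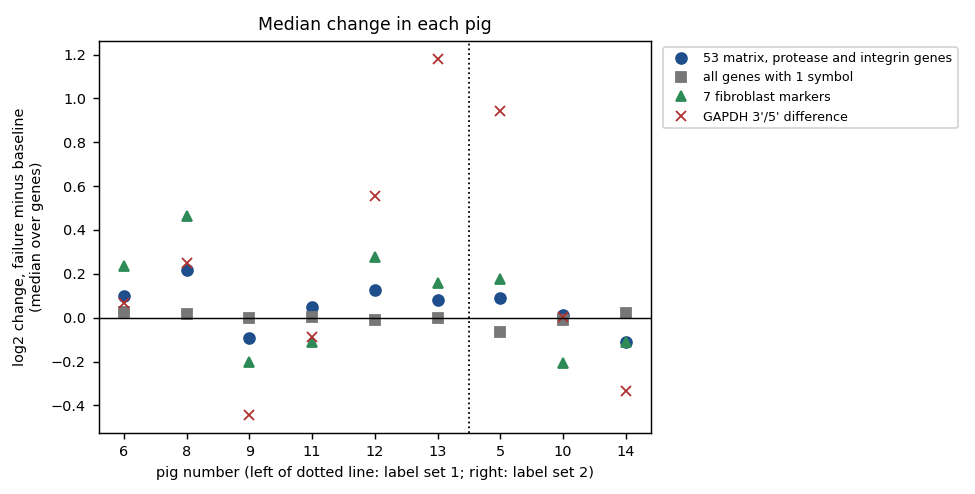
Change from baseline to failure in each pig (x axis) on the log2 scale (y axis): median over the 53 genes, over all 6765 genes and over 7 fibroblast markers, and the change of the GAPDH 3'/5' difference. The medians of the 53 genes run from -0.11 to 0.22, while the medians of all genes lie within -0.06 and 0.03. Those of the 53 genes have the sign of the fibroblast markers in all pigs but 10 and 11. They have the sign of the GAPDH change in all pigs but 11.

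Molecular partners were then compared across pigs, in 9 pairs chosen by their known biology after the values had been seen. The pairs share pigs and arrays, and each gene was read from its brightest probe set. Pairs that are no partners were not tested. Whether partners went together more than other genes described here therefore cannot be told. Changes of MMP2 and TIMP2, the inhibitor that binds the MMP2 proenzyme, went together with r = 0.853 (exact permutation p = 0.00405, adjusted 0.0365 over the 9 pairs) and rho = 0.933 (exact permutation p = 0.000750, adjusted 0.00675). Within label set 1 r was 0.962 (6 pigs), and label set 2 has too few pigs. Without pigs 9 and 10, the farthest in MMP2, r was 0.494, so part of the relation rests on them. The other 8 pairs did not pass after adjustment. COL6A2 and COL6A3 had r = 0.664 (exact permutation p = 0.0480, adjusted 0.0864) and rho = 0.733 (exact permutation p = 0.0311, adjusted 0.137), and r = 0.717 without pigs 5 and 9. DCN and LUM had r = 0.753 (exact permutation p = 0.0193, adjusted 0.0864) and rho = 0.633 (exact permutation p = 0.0760, adjusted 0.137), and r = 0.560 without pigs 8 and 14. FN1 and POSTN had r = 0.888 (exact permutation p = 0.0370, adjusted 0.0864) but rho = 0.367 (exact permutation p = 0.336, adjusted 0.432). Their r was 0.176 without pig 8 alone and -0.219 without pigs 8 and 12, so this relation rests mostly on pig 8. The pairs ITGA2B with ITGB3, LAMB1 with LAMC1, MMP9 with TIMP1, FN1 with ITGA5 and MMP14 with MMP2 had r from 0.357 to 0.687, with adjusted exact permutation p from 0.0864 to 0.347. Their rho ran from 0.10 to 0.661 (adjusted exact permutation p from 0.137 to 0.810), and r without the 2 farthest pigs from -0.393 to 0.900.

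The response was also compared between the label sets, 6 pigs against 3. The sets are known to differ in the wording of their labels. The labels of label set 2 give no time of ischemia, and whether the sets differ in treatment or only in batch cannot be told apart. In limma's interaction test 0 of 53 genes passed, with 0% of all tested probe sets called and a smallest adjusted p of 0.867. At an unadjusted p under 0.05 there were 4 of 53 (7.55%), against 5.67% of all tested probe sets. The LOX difference between failure and baseline was -0.21 ± 0.32 (SD, n = 6) over the timed pigs of label set 1. Over label set 2 it was 0.37 ± 0.33 (SD, n = 3). All 3 pigs of label set 2 were higher, and 4 of the 6 others were lower (difference 0.58, SE 0.20, adjusted p = 0.867). COL6A2 had differences of 0.12 ± 0.19 and -0.20 ± 0.09, with the 3 pigs of label set 2 lower and 5 of the 6 others higher (difference -0.32, SE 0.13, adjusted p = 0.867). MMP7 had the smallest p (difference 0.55, SE 0.13, adjusted p = 0.867) and ITGA6 was the fourth, but neither was above background. Within label set 1 alone 40 of 53 genes had changes above 0 (median 0.08), and within label set 2 alone 22 of 53 (median -0.00493), with 0 past the threshold in either.

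At baseline the label sets were compared as well, since a difference before ligation is not one of ischemia. In limma 0 of 53 genes passed (smallest adjusted p = 0.281), against 0.0209% of all tested probe sets (5). At an unadjusted p under 0.05 there were 3 of 53 (5.66%), COL1A2, MMP13 and MMP9, against 13.9% of all tested probe sets. COL1A2 ran from 6.82 to 7.19 in label set 1 and from 7.05 to 7.48 in label set 2 (difference 0.37, SE 0.12, adjusted p = 0.281). TIMP1 ran from 7.18 to 8.61 and from 7.94 to 9.28 (difference 0.73, SE 0.35, adjusted p = 0.380). Without pig 10 the TIMP1 difference was 0.29, and over the mean of both its probe sets the COL1A2 difference was 0.15. Of the 53 genes 38 lay higher in label set 2 (median difference 0.08), against 3397 of all 6765 genes (median 0.0010), but 24 did so without pig 5 (median -0.01) and 26 with the GAPDH difference as a covariate (median -0.00492). Pig 5 had the highest baseline values of COL4A2 (10.63), COL8A1 (8.60), COL5A3 (7.85), MMP2 (8.91) and TIMP3 (7.19).

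**Figure D5:**
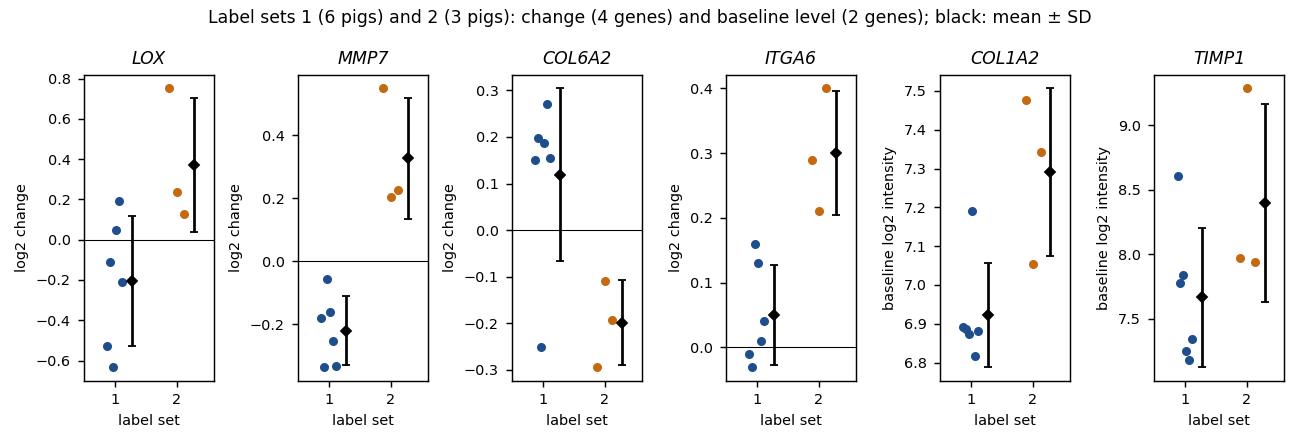
Log2 change from baseline to failure of LOX, MMP7, COL6A2 and ITGA6 and baseline log2 intensity of COL1A2 and TIMP1 in label set 1 (6 pigs) and label set 2 (3 pigs), a point for each pig and the mean ± SD in black. The sets do not overlap for MMP7 and ITGA6, which were not above background, and differ by 0.58 in LOX and -0.32 in COL6A2; 0 of the 6 passed.

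Of 28 genes with several probe sets 15 had changes of the same sign at all probe sets, and the widest gap was that of THBS1 (0.28). Over all 99 probe sets 0 passed in failure against baseline in limma, against 0.0668% (16) of all 23935 tested probe sets. An unadjusted p under 0.05 was found for 8 of the 99, against 6.14% (1470) of all tested probe sets.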

How the data were processed

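The authors deposited log2 intensities per probe set (24123), 1 column for each of the 18 samples. Per the submitters' processing notes Partek was used, with no version; how probes were normalized and summarized is not given in the sources used here. Array medians were nearly equal, and a change common to most genes would be hidden. Control probe sets (188) were left out and 23935 tested. The RefSeq table of Sscrofa11.1 held all 53 genes by identifier, and 0 symbols changed.

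Failure was compared with baseline in limma 3.58.1 under R 4.3.3 (lmFit, eBayes, two-sided, pig as a block, Benjamini-Hochberg over all tested probe sets). The interaction used the same model, and the baseline comparison used 9 arrays without a block. The pairing comes from pig numbers in the labels. After removal of group means, same-pig correlations lay between 0.449 and 0.750, and 9 of 9 baseline samples fitted their own pig best. Pigs are separate animals, and their number limits the precision. The fits were tested on simulated data. The members, lists and tests were chosen with earlier results of these data known. Genes named are those with the smallest p in each comparison or role, the most variable ones and textbook matrix genes; the other members are named to complete their role. Alternatives covered the block, scaling, dim-probe filters, probe-set choice, variance model, RNA quality, rounding, single pigs and label sets. The background level and the partner pairs were chosen after seeing the data.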

Additional observations from a re-analysis of the deposited data

Results flagged for a closer look

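For each of the 53 genes the baseline levels, failure levels and changes were examined for a pig set apart by a wide gap, which gave 15 of 159 sets of values. Chance gives about 1 in 20 (7.95).

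At baseline pig 5 lay far above the others for COL4A2 (10.63), COL5A3 (7.85, the next at 7.14), COL8A1 (8.60, next 7.28) and MMP2 (8.91, next 7.81). In failure it did so for TIMP3 (8.85, next 6.75), whose change was 1.66 (next 0.42). Its baseline array had a GAPDH 3'/5' difference of 2.61 and its failure array of 3.55, the highest of the series.

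Pig 8 stood apart in the changes of FN1 (1.08, next 0.24) and POSTN (1.31, next 0.15), and its baseline ITGB3 was low (5.43, next 5.76). Pig 9 stood apart in the TIMP2 change (-0.66, next -0.17), pig 6 in that of TIMP4 (-0.60, next -0.16) and pig 10 in that of COL10A1 (-0.31, next 0.04). Pig 14 had a high baseline value of COL5A2 (5.64, next 5.33), a high failure value of ITGA2 (3.37, next 3.15), which is below background, and a low failure value of ITGB1 (11.15, next 11.51).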

How the results depend on the processing

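In failure against baseline 0 of the 53 genes passed under each of the 26 alternatives: other scalings, dim-probe filters, probe-set rules, variance models, rounding, the RNA quality covariate, single pigs left out, and either label set by itself. The same held under 24 alternatives for the interaction and 22 for the baseline comparison. Without the block for pig, 0 genes passed, as did 0 probe sets of the array (440 at an unadjusted p under 0.05), against 16 with it. As a random effect, pig gave 15 probe sets and 0 of the 53 genes. The median change of the 53 genes ran from -0.00493 (label set 2 alone) to 0.08 (label set 1 alone), against 0.05 in the main fit. The medians of single pigs had an SD of 0.103. That is a spread of single animals and not the error of a mean over pigs, so it does not show that the median was stable. Of the 53 genes 21 kept the sign of their change under all alternatives that could be run, TIMP1, THBS1, BGN, ITGA8 and ITGB3 among them. The other 32 changed sign under at least 1 alternative; as none was past the threshold, no such turn was counted as a changed call. Filters on dim probe sets removed 10 genes at the 25th percentile and 18 at the median.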
